A study of Oryza sativa Indica Group with 2 samples.

Results

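The transcripts described are those of rice chromosome 4, taken from a comparison of chilled leaves of 2 indica breeding lines. Membership was decided by the identifier alone: every locus of the authors' deposited table whose identifier begins with LOC_Os04g was kept. A locus with several transcript models was represented by the model with the highest mean log2 read share over both libraries. A model read in 1 library only has a very low mean, so a model read in both was preferred to it. This gave 375 loci of 3946 in the table, from 561 of its 5804 models. Among the 375 loci, 106 had more than 1 model, and 0 of these had models of differing direction.

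One line is labelled as tolerant of cold and the other as sensitive to it, and both carry IRGA line names with a common stem. Both were grown in a greenhouse to about 20 days, at the stage of 3 leaves, and both were then held at 10 °C for 6 h under light of 40 µmol m-2 s-1. Leaves of 9 plants were pooled into each library, with 1 library per genotype and no library from plants kept warm. A difference between the libraries is therefore a difference between chilled leaves of these lines, and not a response to cold. Nothing in the table or labels ties a genotype to the sign of the fold change, so the libraries are called A (numerator) and B (denominator), and neither was assigned to a line.

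A rice locus identifier carries the chromosome and a 5-digit number that runs from the tip of the short arm to the tip of the long arm. Chromosome 4 is known for its contrast between arms. Its short arm and the region around the centromere are largely heterochromatic and rich in transposable elements, and most of its expressed genes lie on the long arm. Plant nuclear chromosomes also carry inserted copies of plastid DNA, so that related sequences can stand on several chromosomes. A locus number gives order along the chromosome, not distance in bases.

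Reads per locus were recovered from the deposited log2 columns, and levels are given as RPM, the reads of a locus scaled to the size of its library, which was 12846997 reads for A and 12152372 for B after the authors' scaling. A log2 ratio is the level in A over the level in B, so positive values mean higher in A. Intervals of levels and ratios are 95% exact intervals for reads and cover counting error only. Intervals of shares are 95% exact binomial and treat each locus as independent. Loci of the same libraries need not be independent, so these intervals only describe the number of loci. No genotype had a second library, so there is no replicate and no test of a difference. Only models that passed an adjusted p of 0.05 by edgeR stand in the authors' deposited table. They are 8.61% of 67393 models tested, a number worked out here from the deposited raw and adjusted p-values. A locus that is missing from the authors' table may thus have missed that limit.

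Over the whole chromosome, direction and size were close to those of the table. Of the 375 loci, 153 were higher in library A and 222 in library B, or 40.8% higher in A with an exact binomial interval of 35.8% to 46.0%. Over all loci listed, 41.4% were higher in A and 58.6% in B. The median log2 ratio on chromosome 4 was -0.32, against -0.31 for the table, and the median absolute log2 ratio was 0.56, against 0.57. Chromosome 4 ranked 6 of 12 chromosomes by the share of loci higher in A. A difference of at least 1 on the log2 scale in favour of A was found at 32 loci (8.53%, against 9.63% of the table), and in favour of B at 65 loci (17.3%, against 17.6%). Together these were 97 loci, or 25.9%, against 27.2% of the table. None of these shares sets the chromosome as a whole apart from the background.

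Levels spanned a wide range. The number of reads per locus, summed over both libraries, ran from 9 to 67811 with a median of 635, against a median of 626 for the table. Low levels and large ratios went together, since a locus with few reads can only enter the table with a large ratio. Of 63 loci with under 100 reads, 60 differed by at least 1 on the log2 scale. Of 164 loci with 100 to 1000 reads 30 did, and of 148 loci with 1000 or more reads 7 did. The loci with 1000 or more reads were evenly split, with 74 higher in A and 74 higher in B. This joins 19 of 27 loci higher in A on the short arm (70.4%) and 55 of 121 on the long arm (45.5%), by the boundary given below. The share of the whole table at this depth was not taken. Subtracting the median of the table from each ratio gave 186 loci higher in A and 189 higher in B, an even split that the near-equal medians of chromosome and table fix. Scaling to the table's own totals kept an excess of B, with 163 loci higher in A and 212 in B.

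**Figure D1:**
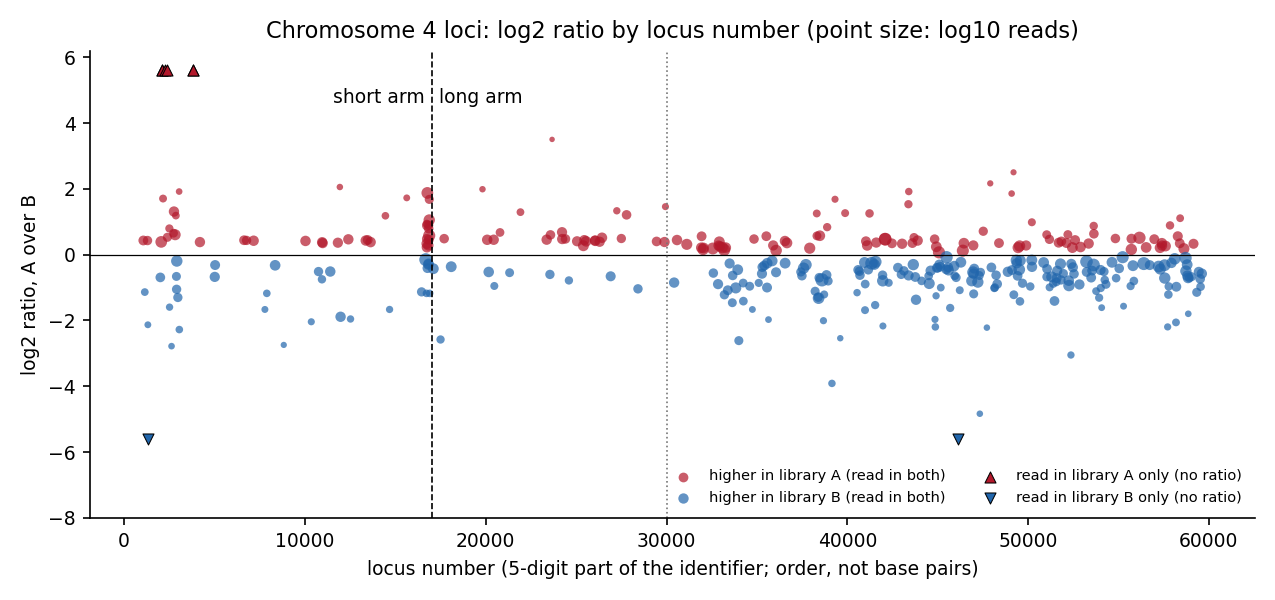
Each point is a chromosome 4 locus, placed by its locus number (horizontal axis, order and not base pairs) and its log2 ratio of A over B (vertical axis), with larger points for more reads. Triangles mark the 8 loci read in 1 library only and have no ratio. The dashed line is the boundary of the arms and the dotted line the split of the long arm at 30000. Points above 0 are frequent left of the dotted line, and points below 0 right of it.

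The arms differed in both density and direction. Locus number 17000 was taken as the approximate centromere, from knowledge of the rice map. The short arm then held 76 of the 375 loci and the long arm 299, or 4.47 and 7.02 listed loci per 1000 locus numbers. On the short arm 45 loci were higher in A and 31 in B, which is 59.2% higher in A (exact binomial interval 47.3% to 70.4%). On the long arm 108 were higher in A and 191 in B, which is 36.1% (30.7% to 41.8%). The 23.1 percentage points between the arms were not tested, because neighbouring loci of 1 pair of libraries are not replicates. The difference was 19.2 points with the boundary at 16000 and 21.2 points with it at 19000.

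The median log2 ratio was 0.36 on the short arm and -0.38 on the long arm. A difference of at least 1 on the log2 scale was found at 34 short-arm loci (44.7%), of which 16 were higher in A and 18 in B. On the long arm it was found at 63 loci (21.1%), of which 16 were higher in A and 47 in B. Short-arm loci had fewer reads, with a median of 388 against 665, and 31.6% of them had under 100 reads, against 13.0% on the long arm. The share of large ratios moves with the reads. Among loci with at least 100 reads, 10 of 52 short-arm loci (19.2%) and 27 of 260 long-arm loci (10.4%) differed by at least 1, against 490 of 3341 in the table (14.7%). In the same loci the contrast of direction was larger, with 67.3% higher in A on the short arm and 36.2% on the long arm.

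Read along 12 windows of 5000 locus numbers, the direction did not change at the centromere. The first 2 whole windows of the long arm had the highest shares, 66.7% of 15 loci from 20000 and 87.5% of 16 loci from 25000. From 30000 the share was 48.3% of 29 loci, and the windows after it held 32.4%, 32.6%, 23.1%, 26.9% and 31.9% higher in A, from 37 to 52 loci each. On the short arm the first window held 62.1% of 29 loci higher in A, the second 33.3% of only 9, and the third 58.8% of 17. The window across the centromere held 61.5% of 26.

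**Figure D2:**
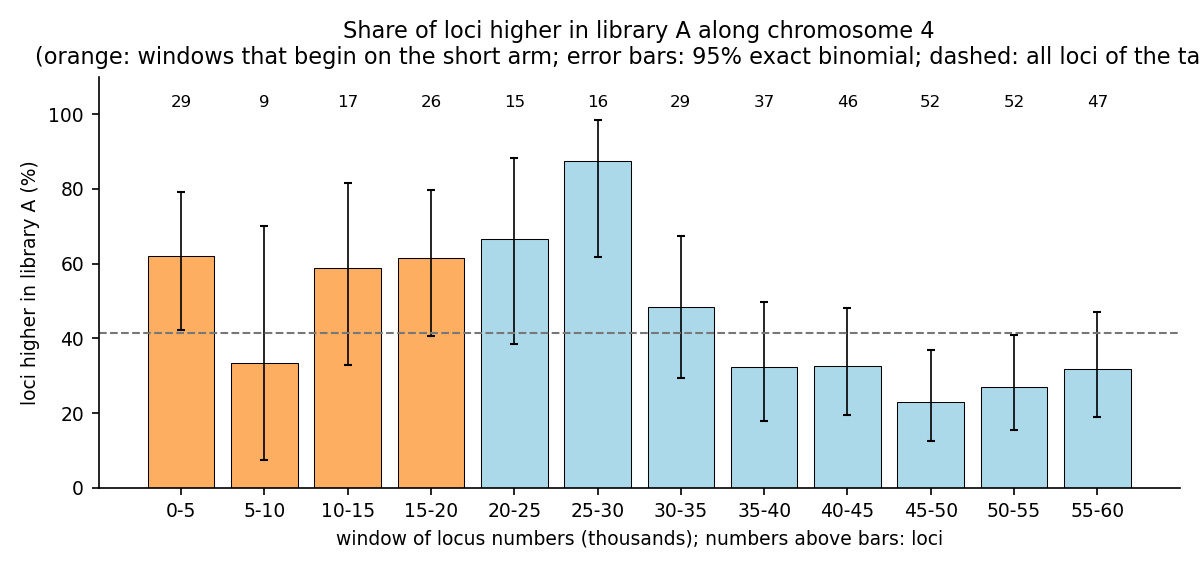
Bars give the share of loci higher in library A in each window of 5000 locus numbers, with exact binomial 95% intervals and the number of loci above each bar. Orange bars are windows that begin on the short arm, the last of which crosses the boundary at 17000, and the dashed line is the 41.4% of all loci. The 16 loci from 25000 to 30000 reach 87.5%, and every window from 35000 on lies at or below 32.6%.

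A split of the long arm at 30000, chosen after these values had been seen, describes this more briefly. The proximal long arm, from 17000 to 30000, held 36 loci, of which 26 were higher in A (72.2%, interval 54.8% to 85.8%), with a median log2 ratio of 0.44. The distal long arm held 263 loci, of which 82 were higher in A (31.2%, interval 25.6% to 37.2%), with a median of -0.44. In the distal zone 45 loci were higher in B by at least 1 on the log2 scale and 10 were higher in A. In the proximal zone these numbers were 2 and 6.

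Among the zones of chromosome 4, ratios in 1 narrow band were most frequent on the proximal long arm. Log2 ratios of 0.35 to 0.50, a band chosen after its peak had been seen, were found at 54 chromosome 4 loci. These were 14.7% of the chromosome's loci read in both libraries, close to the 13.9% of the table's. By whole chromosome the share ran from 9.71% on chromosome 3 to 26.6% on chromosome 12, so the band is not particular to chromosome 4. The 54 loci of chromosome 4 were spread unevenly. They made up 41.7% of the proximal long arm (15 of 36), 24.6% of the short arm (17 of 69) and 8.40% of the distal long arm (22 of 262). The window across the centromere, from 15000 to 20000, held only 3 of them among its 26 loci. Reads of the 54 loci ran from 373 to 27875 with a median of 1065.5, and 39 of the 54 had 500 to 1500 reads. Examples were LOC_Os04g20080 with 835 reads in A and 577 in B (log2 ratio 0.45), LOC_Os04g26060 with 873 and 617 (0.42), and LOC_Os04g10030 on the short arm with 846 and 599 (0.42). LOC_Os04g26060 had the same read numbers as LOC_Os03g25210 and LOC_Os07g34210. For LOC_Os04g10030 another locus of the table lay within 1% in both libraries. Such 1% matches were found for 44.4% of proximal long-arm and 51.3% of short-arm loci, against 36.4% of the table. Whether these reads belong to chromosome 4 was not tested.

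**Figure D3:**
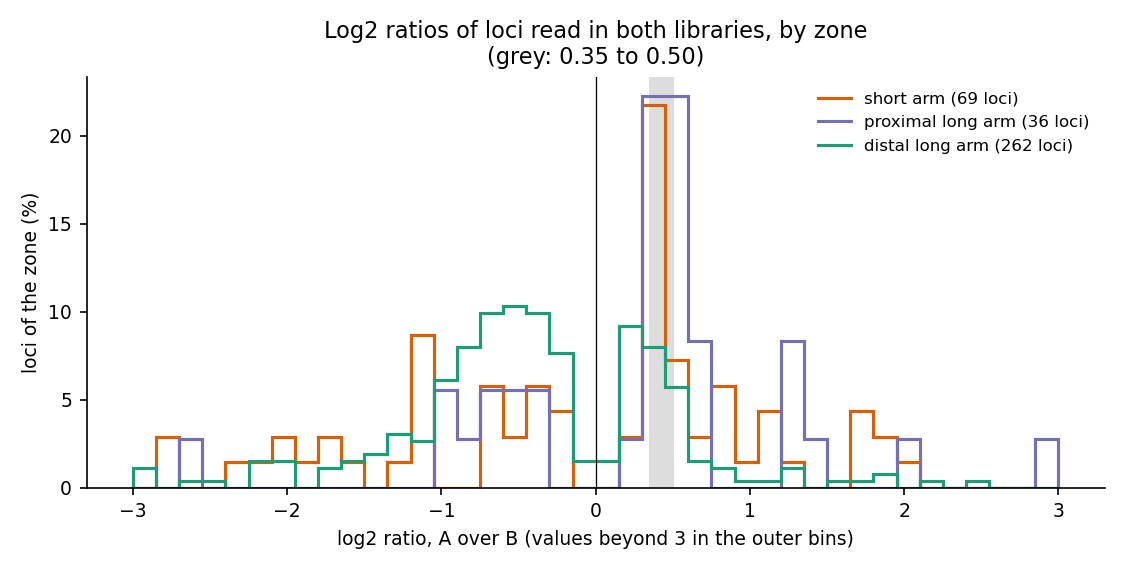
Outlines give the percentage of loci at each log2 ratio of A over B, in steps of 0.15, for the 69 short-arm, 36 proximal and 262 distal long-arm loci read in both libraries. The grey band marks 0.35 to 0.50, where the short arm and the proximal long arm peak, and the distal long arm is broadest below 0. Each locus had to pass the authors' p limit, which leaves few ratios near 0.

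Some loci had the same read numbers as others. An identical pair of reads in A and B was found with some other locus of the table at 24 short-arm loci (31.6%) and 22 long-arm loci (7.36%), against 10.4% of the table. Of these 46 loci, 22 had at least 100 reads. They were 12 on the short arm (23.1% of its loci with that many reads) and 10 on the long arm (3.85%), against 4.19% of the table. Of the 12, 10 lay in the dense stretch described below. Under 100 reads, 44.5% of the table's loci had an identical pair. Whether identical pairs are reads that fit several copies, or low numbers that coincide, was not tested. A wider criterion, another locus within 1% in both libraries, was met by 39 short-arm loci (51.3%) and 91 long-arm loci (30.4%). Without them the shares higher in A were 48.6% and 30.8%. How the authors treated reads with several matches is not given in the sources used here.

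Neighbouring loci shared a direction about as often as in the table. Of 374 neighbouring pairs on chromosome 4, 207 (55.3%) had the same direction, against 57.5% of pairs in the table. The longest run was of 14 loci higher in B from LOC_Os04g45090 to LOC_Os04g46280, with a median log2 ratio of -0.45 among those read in both libraries and 4 loci of at least 1. The next, of 11 loci from LOC_Os04g33390 to LOC_Os04g34750, had larger differences, with a median of -1.01, a range of -2.61 to -0.27 and 6 loci of at least 1. The longest runs higher in A were of 8 loci, 1 near the tip of the short arm from LOC_Os04g02050 to LOC_Os04g02500 and 1 on the proximal long arm from LOC_Os04g25050 to LOC_Os04g26430. The latter was uniform, with log2 ratios of 0.27 to 0.52 and a median of 0.41.

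The tip of the short arm held most of the loci read in 1 library only. Chromosome 4 had 8 such loci, or 2.13% of the 375, against 2.53% of the table. Library A alone had reads at 6 of them, or 1.60%, against 1.37% of the table. Library B alone had reads at 2, or 0.533%, against 1.17%. Of the 8, 7 lay between LOC_Os04g01340 and LOC_Os04g03830, within the first window of 29 loci. LOC_Os04g02070 had 227 reads in A, a level of 17.7 RPM (15.4 to 20.1), and 0 in B. A count of 0 allows up to 3 reads, or 0.247 RPM in B and 0.234 RPM in A. Against this floor per library, with the lower limit of the level in A, the locus was at least 62.5-fold higher in A.

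LOC_Os04g02110 had 152 reads in A (11.8 RPM) and 0 in B, which is at least 40.6-fold higher. LOC_Os04g03796 had 63 reads in A against 0 in B, which is at least 15.2-fold higher, and LOC_Os04g02280 had 49 and 0, at least 11.4-fold higher. The remaining A-only loci, LOC_Os04g02354 with 13 reads and LOC_Os04g03830 with 9, lay close to the floor, with limits of 2.18 and 1.29. In the other direction, LOC_Os04g01340 near the tip had 22 reads in B and 0 in A, at least 4.85-fold higher in B. LOC_Os04g46110 on the distal long arm had 21 and 0, at least 4.58-fold higher in B. LOC_Os04g01340, LOC_Os04g02354 and LOC_Os04g03830 shared their pair of reads with loci on other chromosomes. LOC_Os04g02110 had a match within 1%. No name is paired with any of these 8 loci in the tables used here. Whether a locus with 0 reads was silent, missing from that line's genome or too different from the reference to be aligned cannot be told apart here.

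The A-only loci near the tip did not stand in a block that A alone filled. Just before the first of them stood LOC_Os04g02050, read in both libraries with 4110 reads in A and 2969 in B. Between them lay LOC_Os04g02150 with 69 and 20 reads (log2 ratio 1.71). LOC_Os04g02754 had 929 and 354 reads, a log2 ratio of 1.31 (1.13 to 1.49). Others of the same window were higher in B, such as LOC_Os04g02620 with 4 reads in A and 26 in B, and LOC_Os04g03050 with 12 and 55. In all, 18 of the 29 loci (62.1%, against 27.2% of the table) differed by at least 1 on the log2 scale or were read in 1 library, 10 in favour of A and 8 of B. Reads were low here, with a median of 152 and 13 of the 29 loci under 100 reads, and 96.4% of the table's loci under 100 reads differ by at least 1. Without this window the short arm was still 57.4% higher in A.

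The densest stretch of the chromosome lay beside the centromere on the short arm. Between LOC_Os04g16722 and LOC_Os04g16896, 18 listed loci stood within 200 locus numbers, and no other window of that width that did not overlap it held more than 6. Of the 18 loci, 13 were higher in A and 5 in B, with a median log2 ratio of 0.47. Their reads summed to 24275 in A and 13565 in B. LOC_Os04g16872 had the most, 8092 in A and 5117 in B (log2 ratio 0.58). LOC_Os04g16770 followed with 6355 and 1636 reads, or 495 and 135 RPM, and its log2 ratio of 1.88 (1.80 to 1.96) was the largest in favour of A on the chromosome among loci with at least 100 reads and reads in both libraries. LOC_Os04g16874 had 3083 and 1404 reads (1.05).

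Most loci of this stretch had the same read numbers as loci elsewhere in the genome. An identical pair of reads was found for 12 of the 18, in each case with a locus on another chromosome, over 7 other chromosomes. For 7 of the 12 a partner was on chromosome 10. LOC_Os04g16748, with 922 reads in A and 745 in B, had the same numbers as LOC_Os10g21238 and LOC_Os10g38272. LOC_Os04g16828, with 661 and 514 reads, shared them with LOC_Os05g22722, LOC_Os08g15276 and LOC_Os10g21342. LOC_Os04g16876, with 234 and 69 reads and a log2 ratio of 1.68 (1.29 to 2.09), shared them with LOC_Os01g58038 and LOC_Os02g24628. At such read numbers a shared pair is rare in the table. Among loci with at least 100 reads it was found for 10 of 16 in the stretch, for 12 of 296 elsewhere on chromosome 4, and for 140 of 3341 (4.19%) in the table. The reads of these loci cannot be placed on chromosome 4 from the table, and neither can their direction. By the wider criterion of 1%, 14 of the 18 had a match in the table, LOC_Os04g16770 among them. Its level and ratio may thus not be its own either, which was not tested.

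Not every locus of the stretch was higher in A. LOC_Os04g16832 had 732 reads in A and 853 in B (log2 ratio -0.30), LOC_Os04g16834 had 598 and 684 (-0.27), and LOC_Os04g16775 had 285 and 358 (-0.41). LOC_Os04g16722 and LOC_Os04g16896 each had 22 and 47 reads (-1.18), the same as each other, as LOC_Os04g07890 and as loci on 3 other chromosomes. In the RefSeq gene table of assembly ASM3414082v1, which is not known to be the authors' build, 25 of the 50 genes that follow the aquaporin gene OsPIP2;6 (LOC_Os04g16450) on chromosome 4 are tRNA genes, and no other 50 consecutive genes of the chromosome hold more than 4. The neighbourhood thus holds many tRNA genes in that assembly. Whether the 18 loci belong to an inserted piece of plastid DNA was not tested. Without them the short arm was 55.2% higher in A, with 32 of 58 loci.

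**Figure D4:**
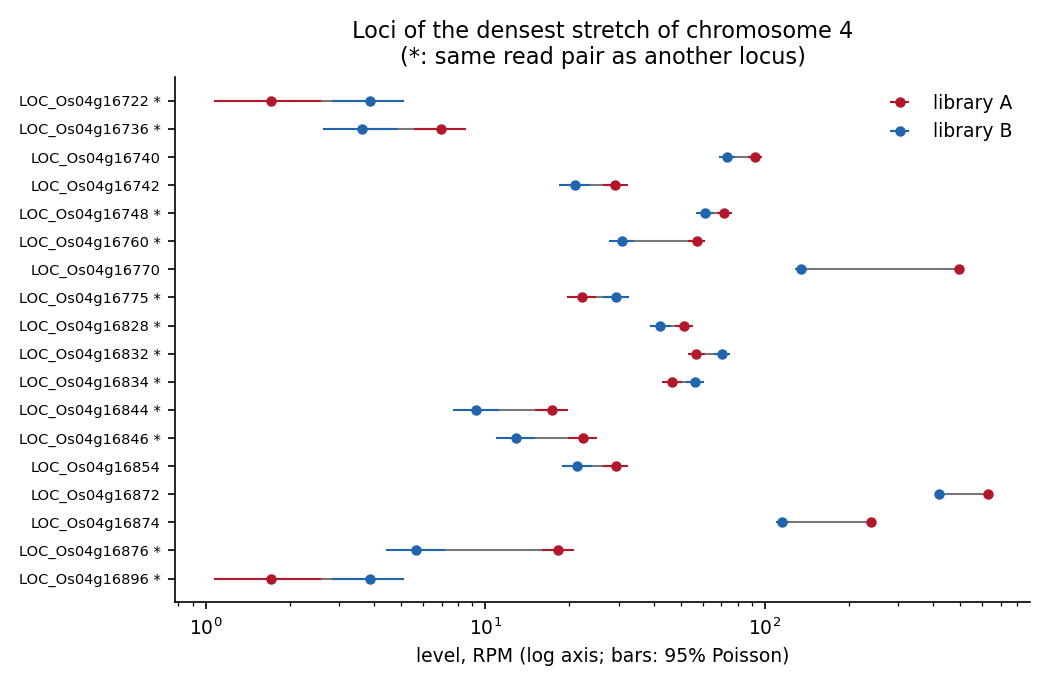
Levels of the 18 loci between LOC_Os04g16722 and LOC_Os04g16896 are shown in order, in RPM on a log axis, with red points for library A, blue points for library B and exact Poisson 95% intervals. A star marks the 12 loci whose pair of reads is the same as that of another locus. LOC_Os04g16770 has the widest gap, 495 RPM in A against 135 in B. It has no star, but another locus lies within 1% of its reads in both libraries.

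Away from the first window and the dense stretch, the rest of the short arm was mixed. Of these 29 loci, 14 were higher in A and 15 in B, with a median log2 ratio of -0.15. LOC_Os04g11970 had the largest ratio there among loci with at least 100 reads. It had 288 reads in A and 1008 in B, with a log2 ratio of -1.89 (-2.08 to -1.70). A group of 6 genes from LOC_Os04g09900 to LOC_Os04g10160 belongs to this region, the cluster that makes the diterpenoid momilactones, which rice uses in defence and against competing plants. It includes OsCPS4 and OsKSL4, the diterpene synthases of the pathway, and the cytochrome P450 genes CYP99A2 and CYP99A3. The authors' deposited table holds 0 of these 6, and since it holds 8.61% of the models tested, their absence says nothing of the cluster.

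Known genes of chromosome 4 were followed through 9 lists of 59 genes in all. Locus identifiers and roles come from field knowledge. For 36 of the 59 the symbol was found on chromosome 4 of the RefSeq table, in the same order as the locus numbers, and only these are called by name. The authors' deposited table holds 23 of the 59, of which 4 were higher in A and 19 in B, where 41.4% of all loci were higher in A and 58.6% in B. The counts for each list below stand against the same shares. Their median log2 ratio was -0.68, against -0.31 for the table, and after centring on the table's median 7 were higher in A and 16 in B. All but OsAPX3, OsPIP2;6 and LOC_Os04g16680 lie on the distal long arm. In that zone the median log2 ratio of all loci in the table was -0.44, and 31.2% were higher in A.

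Of 11 listed genes of photosynthesis, 6 were in the table. On the authors' scale these 6 were higher in B, with a median log2 ratio of -0.87, and after centring 5 of them were. OsPORA (LOC_Os04g58200) encodes protochlorophyllide oxidoreductase, the light-driven enzyme of chlorophyll synthesis. It had 248 reads in A and 461 in B, or 19.3 and 37.9 RPM, for a log2 ratio of -0.97 (-1.20 to -0.75) with an adjusted p of 1.84e-16 in the authors' deposited table (edgeR). The other 5 were listed by identifier only. The most abundant was LOC_Os04g38600, which also had the most reads of all 375 loci, 26004 in A and 41807 in B, or 2024 and 3440 RPM, with a log2 ratio of -0.77 (-0.79 to -0.74).

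The largest difference of this list was at LOC_Os04g38410, with 153 RPM in A and 383 in B, with a log2 ratio of -1.32 (-1.40 to -1.25). LOC_Os04g33830 had 87.9 and 177 RPM (-1.01), and it lies in the run of 11 loci higher in B. LOC_Os04g59440 had 345 and 468 reads (-0.52). At LOC_Os04g16680, beside the dense stretch, the levels were 1657 and 1839 RPM, and the log2 ratio of -0.15 turned to 0.16 on centring and to 0.044 on scaling to the table's own totals, so it has no firm direction. GLO3, a glycolate oxidase of photorespiration, and ZEP, the zeaxanthin epoxidase of the xanthophyll cycle, were not in the table.

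In nitrogen metabolism GLN2 (LOC_Os04g56400), the plastid glutamine synthetase that captures ammonium released in photorespiration, was the second most read locus of the chromosome. It had 22246 reads in A and 25386 in B, or 1732 and 2089 RPM. Its log2 ratio of -0.27 became 0.041 after centring on the table's median, so its direction rests on the scale. The ammonium transporter OsAMT1;1 was not in the table.

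Of 12 genes of cold and stress signalling, 6 were in the table, 2 higher in A and 4 in B. COLD1 (LOC_Os04g51180) encodes a membrane protein that acts with a G-protein subunit in chilling tolerance of rice. It had 222 reads in A and 152 in B, or 17.3 and 12.5 RPM, with a log2 ratio of 0.47 (0.16 to 0.77) and an adjusted p of 0.0328 in the authors' deposited table (edgeR). The calcium-dependent protein kinase OsCPK13 (LOC_Os04g49510) was the other way, with 245 RPM in A and 336 in B, with a log2 ratio of -0.45 (-0.52 to -0.39). OsCPK12 (LOC_Os04g47300), of the same kinase family, had 107 and 157 reads (log2 ratio -0.63, adjusted p 0.00856 by edgeR in the authors' deposited table).

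The transcription factor gene OsNAC2 (LOC_Os04g38720) had 32 reads in A and 70 in B, with a log2 ratio of -1.21 (-1.86 to -0.59), and its pair of reads also stood at other loci of the table. The remaining 2 were listed by identifier only. LOC_Os04g51560 had 78 and 131 reads (-0.83), and LOC_Os04g37920 had 2028 and 1673 reads (0.20, 0.10 to 0.29). The transcription factor genes OsDREB1E, OsMYB4 and OsHsfB2a, the SnRK2 kinase genes SAPK5 and SAPK7 and the ethylene receptor gene OsETR2 were not in the table.

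Of 8 genes of stress protection, 5 were in the table, 2 higher in A and 3 in B. The ascorbate peroxidases, which remove hydrogen peroxide, were split. OsAPX7 (LOC_Os04g35520), a plastid form, had 29.0 RPM in A and 19.7 in B, for a log2 ratio of 0.56 (0.32 to 0.80). OsAPX3 (LOC_Os04g14680), a peroxisomal form on the short arm, had 13 reads in A and 39 in B, or 1.01 and 3.21 RPM, for a log2 ratio of -1.67 (-2.69 to -0.73).

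SAMDC (LOC_Os04g42090), the S-adenosylmethionine decarboxylase of polyamine synthesis, had 1260 RPM in A and 909 in B, for a log2 ratio of 0.47 (0.44 to 0.51). The neighbouring identifier LOC_Os04g42095 had nearly the same reads, 16577 in A and 11298 in B against 16181 and 11048, and it was the only neighbouring pair on the chromosome within 5% of each other in both libraries. The reads of these neighbours may be the same reads, and their overlap was not tested. A pair listed by identifier only, LOC_Os04g43760 and LOC_Os04g43800, was higher in B, with log2 ratios of -0.68 and -1.37. The latter had 28.2 RPM in A and 72.8 in B. OsBADH1, a betaine aldehyde dehydrogenase, and OsCAD7, a cinnamyl alcohol dehydrogenase of lignin synthesis, were not in the table.

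Both aquaporins in the table, of 3 listed, were higher in B. These plasma membrane channels carry water between cells. OsPIP1;2 (LOC_Os04g47220) had 1647 reads in A and 2776 in B, or 128 and 228 RPM, with a log2 ratio of -0.83 (-0.92 to -0.74). OsPIP2;6 (LOC_Os04g16450) had 113 and 234 reads, or 8.80 and 19.3 RPM, with a log2 ratio of -1.13 (-1.47 to -0.80). OsPIP2;3 was not in the table.

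Sugar and starch, growth, and resistance had 1 gene each in the table, of 6, 6 and 5 listed. GAPC2 (LOC_Os04g40950), the cytosolic glyceraldehyde-3-phosphate dehydrogenase of glycolysis, had 1272 reads in A and 1418 in B, and its log2 ratio of -0.24 became 0.075 on centring. The cell-wall invertase genes OsCIN2 and OsCIN3 were not in the table. Among genes of growth, NAL1 (LOC_Os04g52479), which controls leaf width, had 394 and 486 reads (-0.38). Among genes of resistance, Pi21 (LOC_Os04g32850), a proline-rich protein whose functional allele lowers resistance to rice blast, had 377 and 663 reads, or 29.3 and 54.6 RPM, with a log2 ratio of -0.89 (-1.08 to -0.71).

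**Figure D5:**
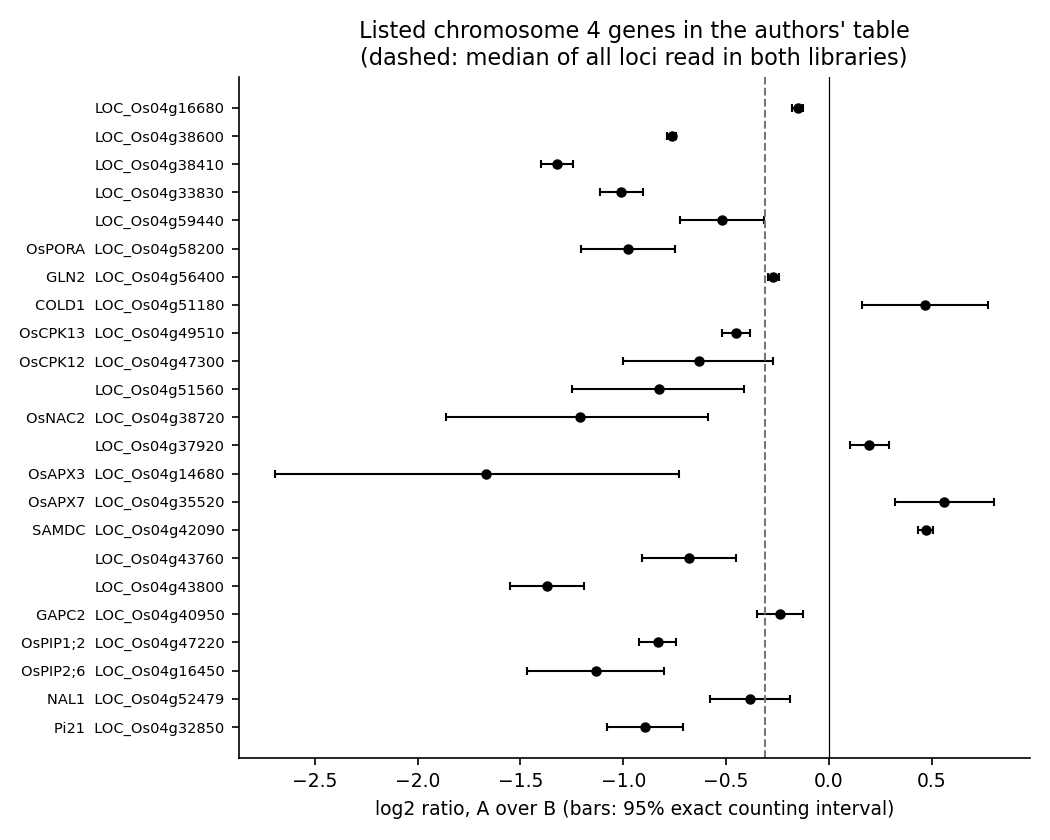
Points give the log2 ratio of A over B for the 23 listed genes in the table, with exact 95% counting intervals, and the dashed line is the median of all loci, -0.31. Only COLD1, OsAPX7, SAMDC and LOC_Os04g37920 lie right of 0. OsAPX3, with 13 and 39 reads, has the widest interval.

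Among unnamed loci with at least 100 reads, the largest difference in favour of B was on the distal long arm. LOC_Os04g34000, within the run of 11 loci, had 42 reads in A and 243 in B, for a log2 ratio of -2.61 (-3.12 to -2.14). LOC_Os04g17500, just past the centromere, had 20 and 113 reads (-2.58). On the distal long arm LOC_Os04g45690, within the run of 14 loci, had 32 and 93 reads (-1.62), and LOC_Os04g41540 had 34 and 93 (-1.53). In favour of A, LOC_Os04g43380 had 98 and 32 reads (1.53, 0.95 to 2.16), and LOC_Os04g41229 had 116 and 46 (1.25). LOC_Os04g41340 was among the 5 loci with most reads, at 1043 RPM in A and 1249 in B (-0.26).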

How the data were processed

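Libraries were primed with poly-T on poly-A RNA, had inserts near 500 bp, and gave single-end reads of 100 bp on an Illumina HiSeq 2000, per the labels' protocols. Bowtie 0.12.7 and edgeR were used, per the submitters' processing notes. Genome build, annotation release, strand use and dispersion were not given in the sources used here. Unequal alignment of the lines to the reference could move ratios and was not checked.

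Per the file headers, the authors deposited for each model 2 log2 columns (mean read share and fold change) and a p-value, raw and adjusted. Solving both log2 columns for each library gave read numbers that were whole within 1e-06 for 100% of values. Tables were computed with Python 3.11.15, pandas 2.3.3, NumPy 2.4.6 and SciPy 1.17.1 and drawn with matplotlib 3.10.9. Intervals are Clopper-Pearson for ratios and shares and Poisson for levels. Read recovery was tested on simulated data. With log2 values and 1 library per genotype no count model was fitted.

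Members and gene lists were chosen with earlier results of these data known. Named loci are all list members in the table, the 5 with most reads, the 5 largest ratios per direction among loci with at least 100 reads and reads in both libraries, up to 4 per library read in 1 library, and ends and strong members of the longest runs and windows. Other loci named were chosen after their values were seen. Alternatives were p limits, fold thresholds, level and read filters, all models, 2 rescalings, pseudocounts, arm boundaries, window widths and removal of loci with matching reads.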

Additional observations from a re-analysis of the deposited data

How the results depend on the processing

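No paired analysis was possible because there was a single library for either genotype. The short arm had a larger share of loci higher in A than the long arm under each boundary, filter and scaling. The gap was 17.9 to 31.2 percentage points when each was applied alone. Without both the first window and the dense stretch, the short arm's share was 48.3% of 29 loci, against 36.1% on the long arm. The long arm's share was 44.6% at levels at or above the table's median, 45.8% after centring and 27.1% without ratios of 0.35 to 0.50. After centring the distal long arm was at 42.2%. Without that band it was at 24.9% and the proximal long arm at 52.4%, and since the band holds only loci higher in A, its removal lowers every share. The highest share in a window of at least 20 loci was 38.5% without loci matching within 1%. No window below 30000 kept 20 loci under that filter, and the proximal long arm was then at 65.0%. The number of loci higher in A was 232 over all models, 92 at levels at or above the table's median, 82 without 1% matches and 99 at an adjusted p of at most 0.01 in the authors' deposited table (edgeR). The number higher in B was 97 with the level filter. Loci higher in A by at least 1 on the log2 scale numbered 50 over all models, 3 with the level filter, 9 with at least 100 reads, 19 without 1% matches, 18 at the stricter p limit, 21 without identical pairs and 10 at a threshold of 2. In favour of B they numbered 39 after centring, 5 with the level filter, 28 with at least 100 reads and 19 at a threshold of 2. The median log2 ratio was -0.011 after centring, -0.13 on the table's own totals, -0.10 with the level filter and -0.46 without 1% matches. Loci read in A only fell to 3 without 1% matches. Loci read in B only numbered 4 with up to 3 reads allowed in A, 1 without 1% matches and 1 without identical pairs. Centring turned LOC_Os04g16680 (0.16), GLN2 (0.041) and GAPC2 (0.075), and table totals turned LOC_Os04g16680 (0.044). Pseudocounts of 1 and 0.1 RPM left all 23 listed genes in their direction and within their intervals. The causes of these shifts were not tested. Depth limits ratios below 100 reads.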
